A study of Homo sapiens with 49 samples.

Results

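The 7 genes FOXA1, GATA3, TFAP2A, TFAP2C, TRPS1, SPDEF and ELF5, which encode transcription factors of the luminal lineage of the breast, were followed through the ChIP-seq peak lists of T-47D and Ishikawa cells. They were chosen by name, not by a measured value, though with earlier results of these data known, out of 20098 protein-coding genes on chromosomes 1 to 22 and X. T-47D is a luminal breast carcinoma line that expresses the estrogen and progesterone receptors, and Ishikawa is an endometrial adenocarcinoma line. Both are single established lines, so a difference between them cannot be told apart from a difference between breast and endometrium. Cells were exposed to 17β-estradiol (E2) at 10 nM or to DMSO as the vehicle, with harvest after 1 h where a protein and after 8 h where a histone mark was profiled. SIN3A was instead profiled in stripped and in full medium. The 45 peak lists, 24 of T-47D and 21 of Ishikawa, come from 49 samples, and the 4 others are input controls, used by their authors as background and not analysed here. Each line, target and treatment had 1 library, except RNA polymerase II (RNAPII) in T-47D with 2 libraries per treatment. Comparisons between the lines, and E2 comparisons other than RNAPII, therefore have no replicate check and no test.

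For each gene, the locus was the gene body with 50 kb on each side. A peak was assigned to a start site if it shared at least 1 bp with the 250 bp on either side of any annotated transcript start, otherwise to the body, otherwise to the flank. On hg19, FOXA1 lies on chromosome 14 at 38058757-38065264, GATA3 on chromosome 10 at 8087341-8117161 and TFAP2A on chromosome 6 at 10393419-10419892. TFAP2C lies on chromosome 20 at 55204362-55214339, TRPS1 on chromosome 8 at 116420724-116821899, SPDEF on chromosome 6 at 34505579-34524110 and ELF5 on chromosome 11 at 34500338-34546740. The genes differ in size, from 6.51 kb for FOXA1 to 401 kb for TRPS1, and in annotated start sites, from 2 for TFAP2C and SPDEF to 18 for TFAP2A. Numbers of peaks are therefore compared between samples at 1 gene, not between genes. The loci of FOXA1, SPDEF and ELF5 also hold the starts of other protein-coding genes, which are MIPOL1 and TTC6, PACSIN1, and CAT.

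FOXA1 is a pioneer factor that opens chromatin for the estrogen receptor, GATA3 and the AP-2 factors TFAP2A and TFAP2C act with it at enhancers of luminal cells, and TRPS1 is a repressor with a GATA-type zinc finger. SPDEF and ELF5 are ETS-family factors, known for secretory luminal cells and for luminal progenitor and alveolar cells. Among the marks, H3K4me3 is found at active start sites, H3K4me1 at enhancers and H3K27me3 at Polycomb-repressed chromatin, and TAF1 is a subunit of TFIID, which binds core promoters.

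The lists differed greatly in length, from 2 peaks (Ishikawa MYC under E2) to 46282 (T-47D RNAPII under E2), and 13 lists held fewer than 1000 peaks. Read depth is unknown, since a peak list holds no read counts. A gene without a peak in a short list, such as the 42 peaks of T-47D LSD1 under DMSO, the 75 of T-47D SIN3A in stripped medium or the 107 of T-47D H3K27me3 under E2, carries little information. Over other luminal breast genes, 13 of 22 carried H3K4me3 at a start site in both lines under DMSO, among them ESR1, PGR, KRT8, KRT18 and KRT19, and 4 (AGR2, TFF3, GREB1 and TBX3) in T-47D alone. Of 9 endometrial and Müllerian genes, 4 (PAX8, HOXA10, HOXA11 and EMX2) carried it in Ishikawa alone and 2 (PAX2 and MSX2) in T-47D alone. Of 12 basal and myoepithelial genes, 5 (FOXC1, EGFR, VIM, ACTA2 and MYLK) carried it in both lines, SNAI2 in T-47D alone, ID4 in Ishikawa alone, and 5 (TP63, KRT5, KRT14, KRT17 and SOX10) in neither.

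Windows of 200 bases are shown around summits of JUN peaks, which T-47D had at all 7 loci. No share of all loci with such a peak is given, so this is not a result about these genes. For each gene but TRPS1, the window is that of the T-47D JUN peak of highest fold enrichment under E2 with at most 30 annotated exon bases. With this limit it is not always the strongest JUN peak of the gene. The TFAP2C window is a flank peak of 9.44-fold, while the start-site JUN peak of TFAP2C had 29.7-fold. TRPS1, with a start-site JUN fold of 53.2, was left out, and its windows were not searched. The last window is the summit of the Ishikawa JUN peak under E2 upstream of TFAP2A, within an exon of the long noncoding RNA gene MIR5689HG. Sequences are from GRCh37 (hg19), 5′ to 3′, and capitals mark matches to the searched motifs.
FOXA1, T-47D, chr14:38065425-38065624, + strand: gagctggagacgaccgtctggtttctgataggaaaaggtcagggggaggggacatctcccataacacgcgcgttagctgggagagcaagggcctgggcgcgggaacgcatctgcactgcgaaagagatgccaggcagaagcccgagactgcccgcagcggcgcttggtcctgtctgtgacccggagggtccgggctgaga
GATA3, T-47D, chr10:8103763-8103962, + strand: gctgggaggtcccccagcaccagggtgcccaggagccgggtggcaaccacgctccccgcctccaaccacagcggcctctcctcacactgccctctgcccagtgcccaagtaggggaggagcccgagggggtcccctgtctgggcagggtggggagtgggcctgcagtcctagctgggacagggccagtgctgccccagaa
TFAP2A, T-47D, chr6:10404342-10404541, + strand: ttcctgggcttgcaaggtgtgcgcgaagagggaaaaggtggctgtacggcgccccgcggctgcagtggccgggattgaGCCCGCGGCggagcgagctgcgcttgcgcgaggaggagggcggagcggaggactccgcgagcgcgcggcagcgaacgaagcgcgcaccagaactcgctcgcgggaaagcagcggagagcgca
TFAP2C, T-47D, chr20:55201411-55201610, + strand: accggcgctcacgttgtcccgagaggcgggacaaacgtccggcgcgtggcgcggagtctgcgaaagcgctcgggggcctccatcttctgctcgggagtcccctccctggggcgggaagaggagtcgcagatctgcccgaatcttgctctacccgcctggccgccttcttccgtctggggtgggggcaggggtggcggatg
SPDEF, T-47D, chr6:34504361-34504560, + strand: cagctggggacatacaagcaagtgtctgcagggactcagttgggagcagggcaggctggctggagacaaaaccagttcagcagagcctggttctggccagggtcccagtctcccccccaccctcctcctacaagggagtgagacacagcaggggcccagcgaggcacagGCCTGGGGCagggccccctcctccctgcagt
ELF5, T-47D, chr11:34535032-34535231, + strand: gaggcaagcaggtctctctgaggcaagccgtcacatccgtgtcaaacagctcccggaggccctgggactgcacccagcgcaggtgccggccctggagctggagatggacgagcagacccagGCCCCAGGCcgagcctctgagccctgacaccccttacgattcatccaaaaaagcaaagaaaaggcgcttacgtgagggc
TFAP2A, Ishikawa, chr6:10452166-10452365, + strand: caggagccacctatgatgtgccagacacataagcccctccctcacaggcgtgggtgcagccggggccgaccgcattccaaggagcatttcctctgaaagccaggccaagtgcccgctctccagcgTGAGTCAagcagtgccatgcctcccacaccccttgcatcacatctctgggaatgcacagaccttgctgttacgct
The motifs, searched on both strands, were AP-1 (TGANTCA), the cyclic AMP response element (TGACGTCA), the word of the zinc-finger family that includes GATA3 (AGATAA), the forkhead word (TGTTTAC), AP-2 (GCCNNNGGC), the E-box (CACGTG) and the estrogen response element (GGTCANNNTGACC), where N is any base. No window held more than 1 match, so no matches overlapped. Of the 6 T-47D windows, 3 (TFAP2A, SPDEF and ELF5) held a match to AP-2 and the others held none. AP-2 matched 27.7% of the 24883 windows of the same length in that T-47D list. None of the 6 held the AP-1 motif, the letters known for binding by JUN, which occurred in 3.38% of all windows of that list against 17.1% of the Ishikawa JUN list under E2. Under DMSO these shares were 4.95% in T-47D and 22.7% in Ishikawa. The upstream TFAP2A window of Ishikawa held 1 AP-1 match. The windows of the T-47D peaks were GC-rich, from 62.5% at ELF5 to 71% at GATA3 and TFAP2A. A match is a description of the letters and not a binding site.

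In T-47D, all 7 genes had a start-site peak for H3K4me3, TAF1, JUN and RNAPII under both treatments, whereas SPDEF and ELF5 had none in any Ishikawa list. Of all 20098 genes, 12482 had one for H3K4me3 in T-47D and 13536 in Ishikawa under DMSO. For TAF1, 22.6% had one in both lines and 0.418% in T-47D alone, and for JUN 3.67% and 54.1%. RNAPII had one in all 4 libraries at 45.6%. No share of all genes without a peak in any Ishikawa list is given. Over the 20 pairs of lists with the same target and treatment in the 2 lines, 51 of 140 gene and list combinations held a start-site peak in T-47D and 25 of 140 in Ishikawa. Paired lists differed in length, such as 28703 peaks in T-47D and 3768 in Ishikawa for JUN under DMSO. No such share over all genes is given, so the totals are not a result about these genes. Each gene had start-site peaks in 7 or 8 of 20 T-47D lists. In Ishikawa, the number of lists was 10 for TFAP2A, 6 for TFAP2C, 5 for FOXA1, 3 for TRPS1, 1 for GATA3 and 0 for SPDEF and ELF5. A peak at any annotated start site counts, and TFAP2A has 18 of these and TFAP2C 2. The numbers of lists are therefore not ranked between genes.

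**Figure D1:**
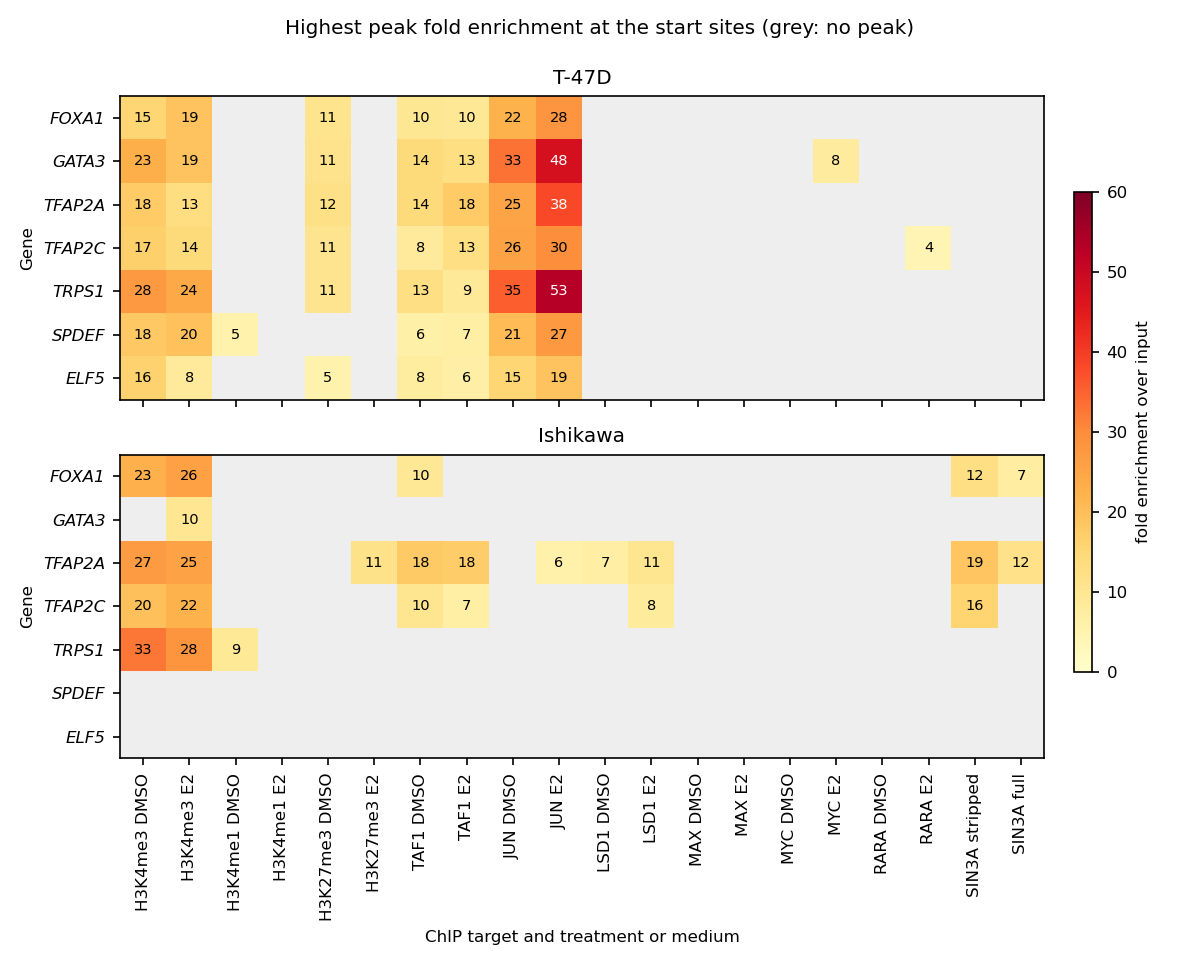
Highest fold enrichment over input of a peak at the start sites of each gene (rows) in each list (columns, target and treatment or medium), for T-47D above and Ishikawa below; each cell is 1 library and grey cells have no peak. SPDEF and ELF5 are grey throughout in Ishikawa, and JUN under E2 reaches 53.2 at TRPS1 in T-47D.

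H3K4me3 stood at the start sites of 7 of 7 genes in T-47D under DMSO. FOXA1, TFAP2A, TFAP2C and TRPS1 also carried it in Ishikawa, while GATA3, SPDEF and ELF5 carried it in T-47D alone, a pattern found at 2.32% of all protein-coding genes. Under E2, GATA3 had a peak in Ishikawa too, and the T-47D-only genes were SPDEF and ELF5 (1.74% of all genes). When only the 5′ end of each gene was used, the T-47D-only genes were GATA3, TFAP2A and SPDEF under DMSO and TFAP2A, TRPS1 and SPDEF under E2, without ELF5. With peaks of at least 10-fold they were GATA3 and SPDEF under E2. No share of all genes is given for these settings. The fold enrichment in T-47D under DMSO and E2 was 15.3 and 19.0 at FOXA1, and 23.04 and 19.1 at GATA3. It was 17.8 and 13.01 at TFAP2A, 16.6 and 14.2 at TFAP2C, and 27.6 and 24.2 at TRPS1. At the ETS genes it was 18.1 and 19.7 at SPDEF, and 16.2 and 8.44 at ELF5. In Ishikawa, the 4 shared genes ranged from 19.8 at TFAP2C to 32.8 at TRPS1 under DMSO, and the peak at GATA3 under E2 had a fold of 10.0, above 23.3% of that list. The T-47D values under DMSO lay above 81.5% to 99.9% of the peaks in their list, and those under E2 above 36.3% (ELF5) to 99.9% (TRPS1). Those of Ishikawa lay above 68.4% to 96.4% under DMSO. Folds were not compared between the lists, which come from separate libraries.

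TAF1 peaks in T-47D alone were rare among all genes and present at most of these 7. Under DMSO, 7 of 7 genes had a TAF1 peak at a start site in T-47D, and GATA3, TRPS1, SPDEF and ELF5 had it in T-47D alone (0.418% of all genes). Of the other luminal genes 4 of 22 (PGR, PRLR, TBX3 and MLPH) showed the same, and of the 15 paralogs of the 7 genes 0 did. Under E2, FOXA1 joined these 4 (0.612% of all genes), and TFAP2A and TFAP2C kept a peak in both lines. The T-47D lists were the shorter ones, with 4591 and 5645 peaks under DMSO and E2 against 19349 and 16554 in Ishikawa. The T-47D folds under DMSO and E2 were 9.62 and 9.55 at FOXA1, 14.3 and 12.8 at GATA3, and 14.2 and 17.7 at TFAP2A. They were 8.48 and 12.5 at TFAP2C, 12.5 and 8.68 at TRPS1, 6.14 and 6.58 at SPDEF, and 7.72 and 6.45 at ELF5. In Ishikawa under DMSO the folds were 9.55 at FOXA1, 17.9 at TFAP2A and 10.2 at TFAP2C. Several T-47D peaks were thus weak, and with peaks of at least 10-fold only, 2 genes remained in T-47D alone under DMSO (GATA3 and TRPS1) and 2 under E2 (GATA3 and TFAP2C). With the longer list shortened to the strongest peaks, so that both had equal length, the T-47D-only genes numbered 7 under DMSO and 6 under E2. When only the 5′ end of each gene was used, 2 (TFAP2A and SPDEF) were T-47D-only under DMSO. No share of all genes is given for these settings, and the shares above do not apply to them.

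JUN, a subunit of AP-1, had a start-site peak at 7 of 7 genes in T-47D under both treatments. This was in T-47D alone for 7 genes under DMSO, but the same held for 54.1% of all genes, so it is not a result about these genes. Under E2 the genes in T-47D alone were 6, all but TFAP2A, beside 29.4% of all genes. Ishikawa JUN lists held 3768 peaks under DMSO and 18311 under E2, against 28703 and 24885 in T-47D. The highest T-47D folds were at TRPS1, with 35.4 under DMSO and 53.2 under E2, and at GATA3, with 33.1 and 47.6. The lowest were at ELF5, with 15.4 and 19.1. The TFAP2A peak of Ishikawa under E2 had a fold of 5.68, above 9.97% of its list. All 17 start-site JUN peaks of T-47D under DMSO overlapped an H3K4me3 peak and RNAPII peaks of both replicates, as did all 16 under E2. Over the JUN peaks at start sites of any protein-coding gene, 85.0% overlapped H3K4me3 and 66.3% overlapped RNAPII of both replicates under DMSO, and 80.1% and 71.5% under E2. Over the whole JUN list under DMSO the shares were 56.0% and 43.8%. With the AP-1 word in 4.95% and 3.38% of the T-47D windows, whether these peaks mark binding of JUN itself was not tested, and their folds and numbers are those of the library labelled JUN. Of 34 JUN peaks in gene bodies under DMSO, 18 overlapped H3K4me3 and 30 overlapped RNAPII of both replicates, and of 21 in the flanks 14 and 15 did.

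H3K27me3 was recorded at the start sites of 6 of 7 genes in T-47D under DMSO, all but SPDEF, and in T-47D alone (21.0% of all genes). The fold enrichments were 10.8 at FOXA1, 11.04 at GATA3, 12.03 at TFAP2A, 10.7 at TFAP2C, 10.6 at TRPS1 and 5.42 at ELF5. Of the 33 H3K27me3 peaks at the 7 loci in T-47D, 30 (90.9%) overlapped an H3K4me3 peak of the same treatment. The share was 85.7% over the 6305 peaks of that list, close to that of these loci. H3K4me3 marks active start sites, and whether the peaks of this list report the Polycomb mark was not tested. The Ishikawa list under DMSO showed a share of 81.5% and held no peak at the loci. TFAP2A had the only start-site H3K27me3 peak in Ishikawa, under E2, at 11.3-fold, beside 25.4% of all genes in Ishikawa alone.

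SIN3A and LSD1 are both found in corepressor complexes. In Ishikawa, SIN3A had start-site peaks at the AP-2 genes and FOXA1, and LSD1 at the AP-2 genes alone. In T-47D, neither had one at any of the 7 genes. In stripped medium, SIN3A peaks of Ishikawa lay at FOXA1 (12.5-fold), TFAP2A (18.8) and TFAP2C (15.8), a pattern of Ishikawa alone that 59.3% of all genes showed. In full medium they lay at FOXA1 (7.50) and TFAP2A (11.8), beside 47.2% of all genes. LSD1 under E2 lay at TFAP2A (10.5) and TFAP2C (8.36), beside 40.5% of all genes, and under DMSO at TFAP2A (6.92), beside 16.7%. The members' shares were thus near or below the background, and the T-47D lists of these targets held between 42 and 649 peaks. MAX had no peak at any of the 7 loci in either line. Of all genes, 89.8% under DMSO and 90.2% under E2 had no MAX start-site peak in either line, so this absence is not a result about these genes. MYC in T-47D under E2 had a start-site peak at GATA3 (8.13-fold), beside 7.33% of all genes in T-47D alone. RARA in T-47D under E2 had one at TFAP2C (4.37-fold), beside 0.353%.

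H3K4me3 peaks in the loci were more numerous in T-47D at each of the 7 genes under both treatments. No share of all protein-coding loci with more H3K4me3 peaks in T-47D is given, so this count of genes has no background. They numbered 77 in T-47D and 23 in Ishikawa under DMSO, and 90 and 28 under E2, although the whole lists held 30774 and 29597, and 29081 and 31901. The T-47D share at the loci was 77% under DMSO (95% exact binomial interval 67.5 to 84.8) against 50.97% over the whole lists, and 76.3% under E2 (67.6 to 83.6) against 47.7%. These intervals cover counting error only, and neighbouring peaks are not independent. At GATA3 the numbers were 15 in T-47D and 1 in Ishikawa under DMSO, and 15 and 4 under E2. At SPDEF they were 10 and 1, and 5 and 2. At TFAP2A, where the numbers were 18 and 7 under both treatments, 10 of the T-47D and 4 of the Ishikawa peaks under DMSO lay at start sites. Away from the start sites, gene bodies held 30 H3K4me3 peaks in T-47D and 6 in Ishikawa under DMSO, and 42 and 8 under E2. With peaks of at least 10-fold only, the T-47D share was 63.6% under DMSO and 62.3% under E2, beside 43.8% and 34.9% over the whole lists.

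**Figure D2:**
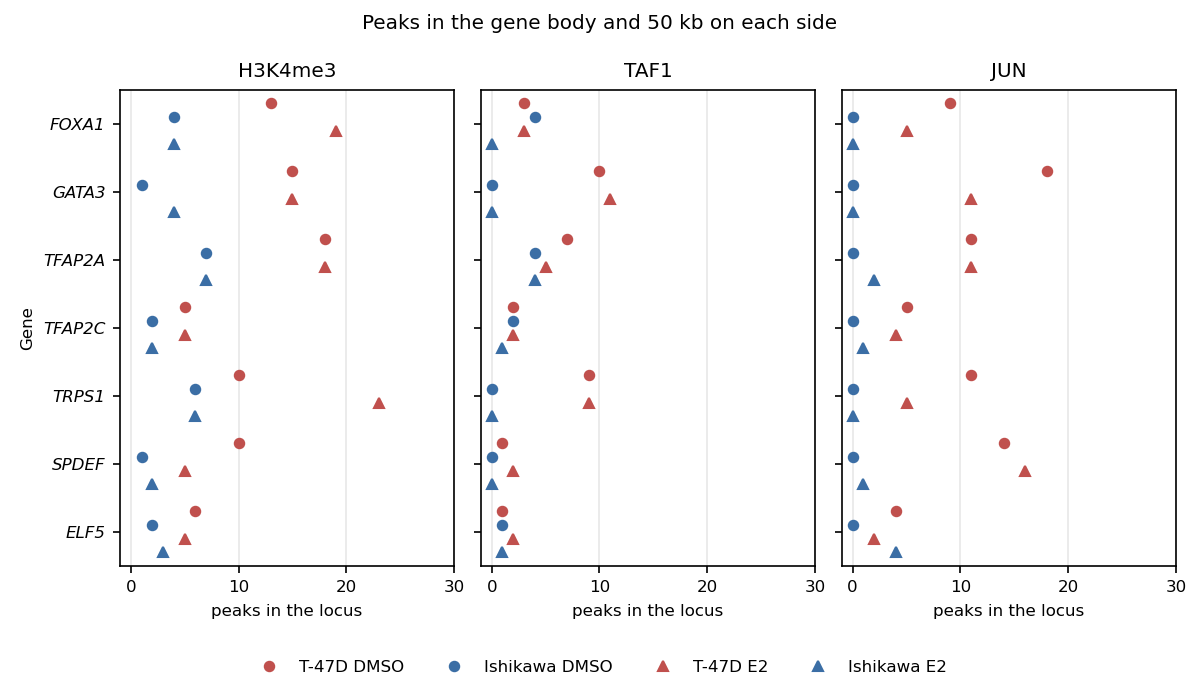
Number of H3K4me3, TAF1 and JUN peaks in each locus (gene body and 50 kb on each side) for T-47D (red) and Ishikawa (blue) under DMSO (circles) and E2 (triangles), 1 library per point. H3K4me3 is higher in T-47D at each gene, TAF1 is not at FOXA1, TFAP2C and ELF5 under DMSO, and JUN under E2 is higher in Ishikawa at ELF5.

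TAF1 peaks in the loci numbered 33 in T-47D and 11 in Ishikawa under DMSO, and 34 and 6 under E2. The T-47D shares of 75% (59.7 to 86.8) and 85% (70.2 to 94.3) stood beside 19.2% and 25.4% over the whole lists. GATA3 held 10 and 11 TAF1 peaks in T-47D under DMSO and E2, TRPS1 held 9 and 9, and neither had one in Ishikawa. FOXA1 held more in Ishikawa under DMSO, 4 against 3. With peaks of at least 10-fold only, the T-47D share was 44.4% under DMSO and 50% under E2, no longer the larger part, beside 4.20% and 10.6% over the whole lists under the same limit. With lists of equal length, where both lines have the same number of peaks in all, it was 100% and 94.4%. A limit on fold acts unequally on these lists, whose mean folds under DMSO were 7.24 in T-47D and 17.3 in Ishikawa. JUN peaks numbered 72 and 0 under DMSO and 54 and 8 under E2, with 100% and 87.1% in T-47D beside 88.4% and 57.6% over the whole lists. Of the 8 Ishikawa JUN peaks, 4 were at ELF5, 2 at TFAP2A, 1 at TFAP2C and 1 at SPDEF. H3K4me1 peaks numbered 20 and 10 under DMSO and 3 and 13 under E2, with 66.7% and 18.8% in T-47D beside 18.4% and 8.00% over the whole lists. SPDEF held 9 of the 20 T-47D H3K4me1 peaks under DMSO.

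The widest H3K4me3 peak at a start site was broad in T-47D relative to other genes. Under DMSO in T-47D it measured 3918 bp at GATA3, wider than at 99.95% of the 12482 genes with a start-site peak, whose median was 803 bp. It measured 2753 bp at TFAP2C (99.5%), 2304 bp at SPDEF (98.8%), 2160 bp at TFAP2A (98.3%) and 1675 bp at ELF5 (94.1%). TRPS1 with 1162 bp (78.3%) and FOXA1 with 1072 bp (72.9%) lay closer to the median. Under E2, the widest peak measured 7570 bp at GATA3 (99.99%), 1916 bp at TRPS1 (97.6%), 2571 bp at TFAP2A, 2313 bp at SPDEF and 1173 bp at FOXA1. At GATA3 and TFAP2A it lay at another place than the widest peak under DMSO. The 3918 bp GATA3 peak had a counterpart of 3877 bp under E2. Where the 7570 bp peak lay, DMSO had adjacent peaks of 2484, 2392 and 2491 bp. H3K4me3 covered 18.9 kb of the GATA3 locus in T-47D under DMSO and 18.4 kb under E2. The peaks of TFAP2C (2085 bp) and ELF5 (1566 bp) were narrower than under DMSO. In Ishikawa, the widths under DMSO were 1129 bp at FOXA1, 1211 bp at TFAP2A, 1197 bp at TFAP2C and 637 bp at TRPS1, beside a median of 1188 bp. The GATA3 peak of Ishikawa under E2 was 489 bp wide, wider than at 7.80% of genes. Widths are set by how the peak caller joins signal, and the summed width of all start-site peaks put TFAP2A of Ishikawa at 95.6% under DMSO.

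**Figure D3:**
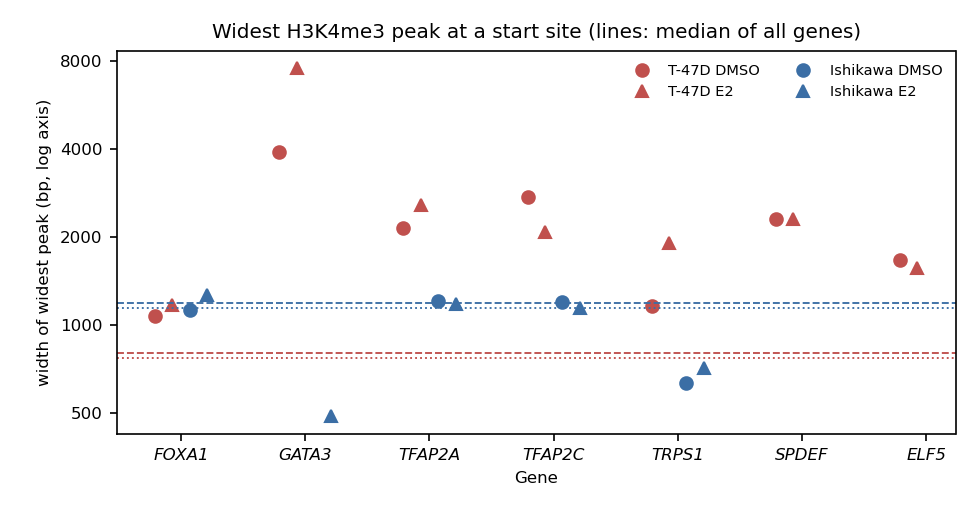
Width in bp (log axis) of the widest H3K4me3 peak at a start site of each gene in T-47D (red) and Ishikawa (blue) under DMSO (circles) and E2 (triangles), with the median of all protein-coding genes as dashed (DMSO) and dotted (E2) lines. GATA3 is the widest in T-47D, with 3918 bp under DMSO and, at another start site, 7570 bp under E2. In Ishikawa it lies below the median at 489 bp under E2.

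Outside the start sites, peaks of all 45 lists were joined into clustered regions where they overlapped, and up to 3 per gene, those in the most lists, are described. The lists include those of RNAPII, which exist for T-47D alone, so numbers of lists and regions are not level between the lines. At TFAP2A, a region upstream of the gene at chr6:10452022-10452758 held peaks of 10 lists, all of Ishikawa, with its middle at -32498 bp from the nearest start site. The 10 lists were both treatments of H3K4me3, H3K4me1, TAF1 and LSD1, and JUN and RARA under E2. The fold enrichment was 19.2 and 17.8 for TAF1 under DMSO and E2, 13.4 and 13.5 for H3K4me1, 13.8 and 10.7 for LSD1, 12.8 for JUN and 6.95 for RARA. Its JUN summit window is the Ishikawa sequence shown above. Downstream of the same gene, the region at chr6:10383438-10384318 held peaks of 13 lists, 3 of them of Ishikawa. There the H3K4me3 fold was 11.3 and 17.6 in Ishikawa under DMSO and E2, and 9.89 and 6.24 in T-47D. T-47D JUN reached 12.4 and 20.7 there, and no JUN peak of Ishikawa lay in it. The third region, in an intron of TFAP2A at the start of TFAP2A-AS2, held 7 lists, 4 of them of Ishikawa.

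At SPDEF, which had no start-site peak in Ishikawa, a region at the 3′ end of the gene, chr6:34498922-34507217, held peaks of 16 lists, and 6 of these were of Ishikawa. The Ishikawa folds there were 15.1 and 13.4 for SIN3A in stripped and full medium, 8.29 and 9.24 for LSD1 under DMSO and E2, 7.51 for JUN and 7.31 for H3K4me1 under E2. The T-47D folds were 34.7 and 31.0 for JUN and 16.1 for H3K27me3 under DMSO, the only H3K27me3 peak of the locus. The JUN window of SPDEF shown above lies in this region, 19645 bp downstream of the nearest start site. The intronic regions at chr6:34515590-34523306 and chr6:34513889-34515218 held 12 and 8 lists, with 2 of Ishikawa in each. At ELF5, the region in the most lists was the start of the neighbouring gene CAT, with 21 lists and 11 of Ishikawa. That start accounted for 11 of the 17 flank peaks of ELF5 in Ishikawa and 8 of 13 in T-47D. The other Ishikawa peaks at the ELF5 locus were 8 in the gene body and the rest of the flank, of 25 in all. The next region of ELF5, at the start of LINC02707, held 7 lists, all of T-47D.

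**Figure D4:**
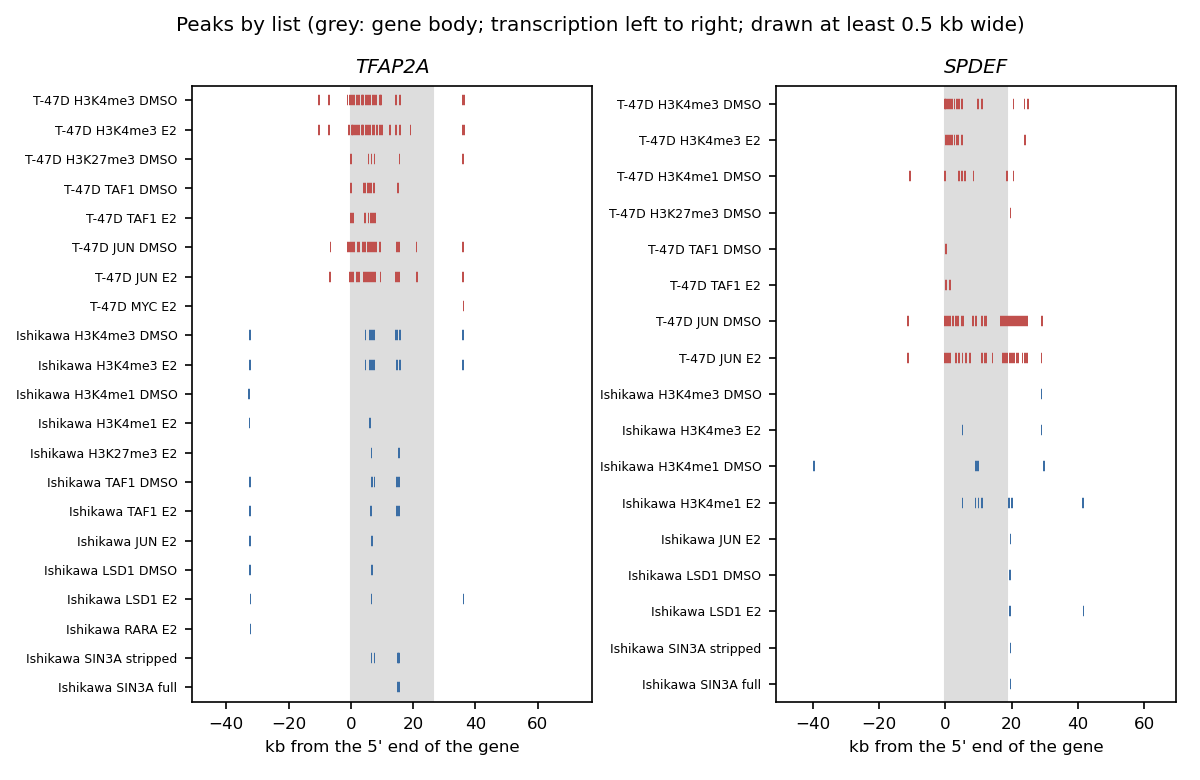
Peaks of each list (rows) around TFAP2A and SPDEF by distance in kb from the 5′ end of the gene, with the gene body in grey, T-47D peaks in red and Ishikawa peaks in blue. The column of blue peaks left of TFAP2A is the region of 10 Ishikawa lists, and SPDEF shows no blue peak at its 5′ end.

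At FOXA1, a region over the 3′ part of the gene, chr14:38052380-38062745, held 13 lists, of which the 2 of Ishikawa were H3K4me3. T-47D had 8 and 9 H3K4me3 peaks there under DMSO and E2 and Ishikawa 2 and 2. The region upstream, chr14:38066765-38069719, in an intron of TTC6, held 10 lists, all of T-47D. Its folds were 11.2 and 11.2 for H3K4me3 under DMSO and E2, 17.4 and 25.2 for JUN, 8.46 for H3K27me3 and 8.23 for MYC. At GATA3, the region at the start of GATA3-AS1, chr10:8091013-8094913, held 11 lists, and the 2 of Ishikawa were again H3K4me3, with folds of 16.1 and 17.8. TAF1 in T-47D reached 9.84 and 11.5 there. A pair of T-47D-only regions over the 3′ part of GATA3 held 7 lists each, those of RNAPII among them. At TFAP2C, the region in the most lists lay at chr20:55221069-55222312, with 6 lists, all of T-47D and all of JUN or RNAPII. Of the 186 clustered regions of TRPS1, 3 held an Ishikawa list, and the one in the most lists (12, with 2 of Ishikawa, both H3K4me3) lay in an intron. RNAPII, profiled in T-47D alone, had 159 and 181 peaks at TRPS1 under DMSO and 122 and 291 under E2. Over the 20 paired lists, the TRPS1 locus held 82 peaks in T-47D and 13 in Ishikawa.

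RNAPII was profiled in T-47D only, and all 4 libraries had a start-site peak at 7 of 7 genes, beside 45.6% of all protein-coding genes. Of the other luminal genes 14 of 22 had one in all 4 libraries, of the basal and myoepithelial genes 2 of 12, and of the paralogs of the 7 genes 6 of 15. The start-site fold at FOXA1 was 86.1 and 32.2 under DMSO and 40.5 and 19.7 under E2, in replicates 1 and 2. At TFAP2C it was 118 and 30.8 under DMSO and 52.8 and 45.3 under E2, and at GATA3 57.2 and 49.5, and 34.0 and 25.4. Replicate 1 was above replicate 2 at 7 of 7 genes in both treatments, so the replicates were not level. Both E2 folds lay below the DMSO fold of the same number at 5 of 7 genes, beside 17.6% of the 9161 genes with a start-site peak in all 4 libraries. At GATA3 they lay below both DMSO folds, as at 1.10% of those genes. The mean fold of all peaks went from 24.8 under DMSO to 15.3 under E2 in replicate 1, and from 11.6 to 12.97 in replicate 2.

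RNAPII peaks at the GATA3 locus numbered 8 and 4 under DMSO and 21 and 15 under E2. Both E2 libraries thus held more than both DMSO libraries, which was the case at 4.26% of all protein-coding loci and at no other of the 7. The difference was 1.48 on the log2(peaks + 1) scale, with SDs of 0.60 under DMSO and 0.32 under E2 (n = 2 each). The exact two-sided permutation p was 0.333, the smallest that 6 assignments allow, and 0.778 after Benjamini-Hochberg adjustment over the 7 loci tested. The covered length did not follow, with 33.1 and 33.3 kb under DMSO and 28.7 and 31.3 kb under E2, a log2 difference of -0.15. At FOXA1 the numbers were 17 and 18 under DMSO and 11 and 16 under E2. Both E2 libraries held fewer, as at 0.726% of all loci, with a log2 difference of -0.37 and the same exact permutation p = 0.333 (adjusted 0.778). These shares of loci are over all 20098 genes, with or without a start-site RNAPII peak, unlike the fold shares over 9161 genes. The covered length at FOXA1 was 19.1 and 19.5 kb under DMSO and 12.1 and 14.2 kb under E2.

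At the other 5 loci the treatments overlapped. The numbers under DMSO and then E2 were 20 and 22, then 14 and 20, at TFAP2A, and 7 and 3, then 18 and 4, at TFAP2C. TRPS1 had 159 and 181, then 122 and 291, with the lowest and the highest number both under E2. SPDEF had 12 and 13, then 25 and 13, and ELF5 had 8 and 5, then 7 and 4. The labels do not say that the replicates were separate cultures, so the spread between them may be technical. No difference could pass 0.05 in this design.

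**Figure D5:**
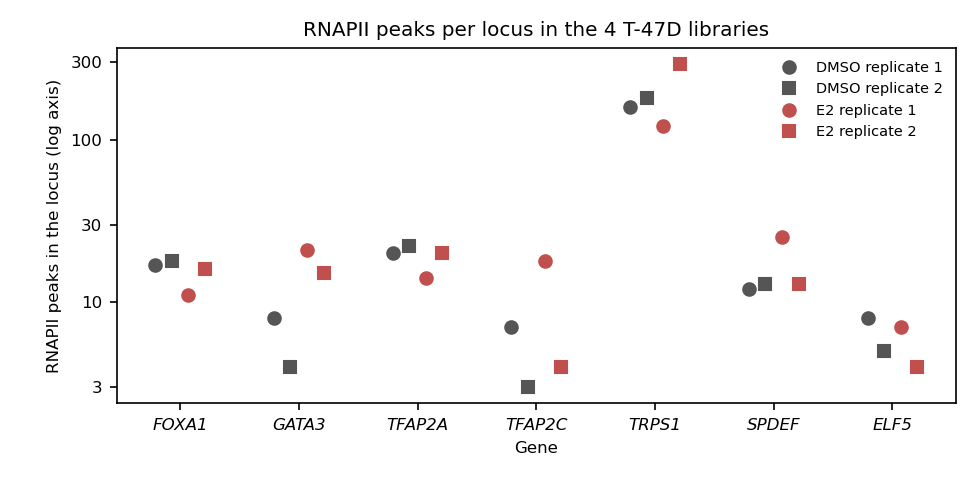
Number of RNAPII peaks in each locus (log axis) in the 4 T-47D libraries, DMSO in grey and E2 in red, with circles for replicate 1 and squares for replicate 2. At GATA3 both red points (21 and 15) lie above both grey points (8 and 4), at FOXA1 both lie below, and at TRPS1 the red points lie at 122 and 291.

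Between DMSO and E2, peak numbers at the 7 loci and the length of the whole list went the same way for JUN and MYC in T-47D, and opposite ways for H3K4me3. H3K4me3 peaks at the loci went from 77 under DMSO to 90 under E2 while the list went from 30774 to 29081, with TRPS1 going from 10 to 23, FOXA1 from 13 to 19 and SPDEF from 10 to 5. TAF1 went from 33 to 34. JUN went from 72 to 54 and its list from 28703 to 24885, while the highest JUN start-site fold was higher under E2 at 7 of 7 genes. The mean fold of all peaks in the list also went from 12.7 to 16.6. No share of all genes with a higher JUN fold under E2 is given, so this is not a result about these genes. MYC in T-47D went from 1 to 6 with a list that went from 601 to 1822, and 5 genes held its peaks under E2.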

How the data were processed

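ChIP-seq of histone marks and proteins in T-47D and Ishikawa cells was analysed from the deposited peak lists. Per the labels and the study's methods, the authors aligned reads to hg19 with Bowtie 1.1.2 and called peaks with MACS2 2.1.0.20140616 in each library. Each deposited peak has a fold enrichment, a ratio over the input control, and -log10 p-values and q-values from the authors' caller, and the lowest -log10 p in any list was 10.0. No read counts were used. Samples were grouped by their titles.

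Genes and transcript starts were taken from GENCODE release 44 lifted to GRCh37, and sequences from the GRCh37 genome. Overlap needed at least 1 bp. The 7 genes, their regions and the comparison lists were chosen with earlier results of these data known. All 7 genes were described whatever their values, with the highest peak at a start site per list and up to 3 clustered regions elsewhere. RNAPII peak numbers were compared on log2(peaks + 1) by an exact permutation test (scipy 1.17.1, Python 3.11.15). Scripts were tested on simulated data. Alternatives were windows of 1000 bp, flanks of 10 and 100 kb, the 5′ end alone, summits inside the window, peaks of at least 10-fold, lists of equal length, covered or summed length, leaving out each RNAPII library and a replicate block. H3K36me3, profiled in Ishikawa alone, entered no comparison.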

Additional observations from a re-analysis of the deposited data

Results flagged for a closer look

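For 4 targets the number of peaks at the 7 loci moved in opposite directions with E2 in the 2 lines, which was not tested because each had 1 library. H3K4me1 peaks changed by -17 in T-47D, whose list went from 6408 to 1960 peaks, and by 3 in Ishikawa, whose list went from 28411 to 22553. H3K27me3 peaks changed by -33 in T-47D, whose list went from 6305 to 107 peaks, and by 3 in Ishikawa, whose list went from 2199 to 6992. TAF1 peaks changed by 1 in T-47D and by -5 in Ishikawa, 4 of them at FOXA1, with lists that went from 4591 to 5645 and from 19349 to 16554. JUN peaks changed by -18 in T-47D, whose list went from 28703 to 24885, and by 8 in Ishikawa, whose list went from 3768 to 18311.

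In data that no comparison used, the Ishikawa H3K36me3 list of 114 peaks held a peak at 1 of the 7 loci, in an intron of TRPS1, with a fold enrichment of 11.9.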

How the results depend on the processing

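Of 188 alternatives, 144 kept the direction and stayed near the value reported, 28 moved it and 16 turned its direction. The cause was not tested. Genes with a start-site peak in T-47D alone were 0 for H3K4me3 under E2 with the summit inside the window. For TAF1 they were 2 under DMSO with the 5′ end only, 2 with peaks of at least 10-fold and 7 with lists of equal length, and 2 under E2 with peaks of at least 10-fold. For H3K27me3 under DMSO they were 3 with the 5′ end only. Genes in Ishikawa alone were 0 for SIN3A in stripped medium with lists of equal length. For SIN3A in full medium and for LSD1 under E2 they were 1 with the 5′ end only, 1 with peaks of at least 10-fold and 0 with lists of equal length. These counts have no share of all genes beside them.

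The T-47D share of peaks in the loci, with peaks of at least 10-fold, was 63.6% and 62.3% for H3K4me3 under DMSO and E2, 44.4% and 50% for TAF1, and 0% for H3K4me1 under E2. With lists of equal length, where both lines have the same number of peaks in all, it was 95.2% and 75% for H3K4me1, and 100% and 94.4% for TAF1. For JUN under E2 it was 94.3% with flanks of 10 kb and 96.0% by covered length.

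The log2 difference of RNAPII turned to 0.069 at FOXA1 with flanks of 10 kb, 0.21 at ELF5 with peaks of at least 10-fold, and -0.18 at SPDEF with lists of equal length. By covered length it was -0.24 at SPDEF, -0.15 at GATA3 and -0.78 at TRPS1. Leaving out 1 RNAPII library gave differences from -0.62 to -0.12 at FOXA1, 1.06 to 1.91 at GATA3, -0.55 to -0.07 at TFAP2A, -0.18 to 1.75 at TFAP2C, -0.47 to 0.77 at TRPS1, 0.05 to 0.95 at SPDEF and -0.56 to 0.12 at ELF5. The direction turned without E2 replicate 1 at TFAP2C, without E2 replicate 2 at TRPS1 and ELF5 (0.12), and without DMSO replicate 1 at ELF5 (0.08). With the replicate block, the differences were the same, 1.48 at GATA3 and -0.37 at FOXA1, and the smallest p was 0.5. The deviations of the libraries numbered 1 correlated at 0.75 over the 7 loci, but with 2 pairs and no label of a shared culture the libraries share only a number.

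Taking the summed in place of the widest H3K4me3 peak moved the share of narrower genes in Ishikawa across the median, to 77.8% at FOXA1 and 61.9% at TRPS1 under DMSO, and to 71.9% at TFAP2C and 66.6% at TRPS1 under E2. Short lists and unknown read depth limit every statement on a missing peak.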
